A study of Mus musculus with 9 samples.

Results

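Lrp2, Cubn, Amn, Dab2 and Clcn5 encode the machinery with which the kidney proximal tubule (PT) takes filtered protein back from the urine, and they were followed here by name in the expression matrices of 9 mice, as 5 of the 32427 genes with a UMI in any matrix. Lrp2 encodes megalin, a very large receptor of the apical membrane, and Cubn encodes cubilin, a peripheral receptor with no membrane anchor of its own. Amn encodes amnionless, which carries cubilin to the cell surface and holds it there. Dab2 encodes the clathrin adaptor that binds the cytoplasmic tail of megalin, and Clcn5 encodes ClC-5, the chloride-proton exchanger of early endosomes whose loss causes Dent disease, an inherited form of low-molecular-weight proteinuria. In the PT, albumin, vitamin carriers and peptide hormones bind megalin and cubilin, enter through clathrin-coated pits, are released in acidified endosomes and are broken down in lysosomes while the receptors return to the membrane.

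The single-cell libraries came from kidneys of male C57BL/6 mice that were 6 weeks old before 1 week of adaptation, with 3 mice in each of 3 groups. Control mice received saline. AKI-CKD mice received 4 weekly intraperitoneal injections of cisplatin at 8 mg/kg, a nephrotoxic drug that injures the tubule and here models how acute injury of the kidney (AKI) passes into chronic disease (CKD). AKI-CKD + EGT mice received the same cisplatin and drank ergothioneine (EGT), a sulfur-containing antioxidant amino acid derivative, at 0.5 mg/mL from 3 days before cisplatin until the kidneys were taken at 8 weeks. The questions were whether the uptake genes differed between cisplatin-treated and saline-treated mice, and whether EGT moved them.

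The matrices held 216680 barcodes, of which 196925 passed the limits stated by the study (1000 UMIs, 500 genes and a mitochondrial share of 15%). This is more than the number of cells the study's methods give after the same limits. Library totals ran from 70106161 to 101525691 UMIs, and the median kept cell of a mouse held 2534 to 2966 UMIs. The library of AKI-CKD + EGT mouse 3 stood apart, since the mitochondrial limit removed 27.7% of its barcodes against 0.909% to 16.98% elsewhere. It also gave the fewest PT cells, 8957, and the most intercalated cells of the collecting duct (CD-IC), 579, so its part in a result is given where it matters. With the Harmony alignment of libraries used here, this mouse held 33.9% of the CD-IC cells. Without Harmony it held 21.6% of 1375 CD-IC cells, and 55.3% of a PT cluster of 14429 cells led by mitochondrial genes. Every pair of libraries shared 3583 to 7810 barcode names, and 0% of the same-named barcodes had equal totals of both UMIs and genes. Cells were clustered again and named from marker genes. PT cells numbered 153562, or 78.0% of those kept, and their clusters raised 8 to 14 of the 18 PT markers. A PT cluster of 202 cells raised 5 of 9 injury markers, whereas the other PT clusters raised 0 to 2, and Havcr1, which encodes the injury marker KIM-1, was at 0.123 to 0.581 CPM (UMIs of a gene per 1000000 UMIs of the cells) in the PT cells of the 9 mice. The uptake genes were kept out by rule from the 2000 variable genes from which the clusters were built.

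The genes are far apart in the genome. In RefSeq's annotation of GRCm38.p6, Lrp2 lies at chr2:69424335-69586029 on the minus strand and Cubn at chr2:13276338-13491876 on the minus strand. Amn is the shortest, at 5331 bp, and lies at chr12:111271096-111276426 on the plus strand. Dab2 lies at chr15:6299788-6440715 on the plus strand and Clcn5 at chrX:7153810-7319358 on the minus strand, and each has 2 annotated starts. All are protein-coding. The submitters' notes name GRCm39 for the matrices, which carry no coordinates, so the positions describe the annotation only.

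The 250 bases before the annotated start of Lrp2, Cubn and Amn are shown because these genes shared nearly the same profile over cell classes, with the bases before the outer start of Clcn5, which did not. Capitals mark GC boxes (GGGCGG or its complement CCGCCC) and the E-box CACGTG. Both motifs were searched on both strands. The windows are chr2:69586030-69586279 (Lrp2), chr2:13491877-13492126 (Cubn), chr12:111270846-111271095 (Amn) and chrX:7319359-7319608 (Clcn5), each written 5′ to 3′ on the gene's own strand.
Lrp2: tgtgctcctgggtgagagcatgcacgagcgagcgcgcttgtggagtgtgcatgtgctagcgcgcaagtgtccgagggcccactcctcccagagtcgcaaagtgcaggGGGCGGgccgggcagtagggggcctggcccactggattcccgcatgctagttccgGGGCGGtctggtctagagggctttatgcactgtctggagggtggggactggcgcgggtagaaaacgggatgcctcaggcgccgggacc
Cubn: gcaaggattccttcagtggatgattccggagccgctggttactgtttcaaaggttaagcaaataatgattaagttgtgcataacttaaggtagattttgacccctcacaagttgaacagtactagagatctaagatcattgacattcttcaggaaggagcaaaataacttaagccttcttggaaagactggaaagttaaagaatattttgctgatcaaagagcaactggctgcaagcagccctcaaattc
Amn: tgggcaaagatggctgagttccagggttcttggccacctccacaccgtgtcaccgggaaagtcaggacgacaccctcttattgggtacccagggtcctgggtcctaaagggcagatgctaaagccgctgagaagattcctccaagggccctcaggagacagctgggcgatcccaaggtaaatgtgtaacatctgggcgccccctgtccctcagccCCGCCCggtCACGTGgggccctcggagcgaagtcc
Clcn5: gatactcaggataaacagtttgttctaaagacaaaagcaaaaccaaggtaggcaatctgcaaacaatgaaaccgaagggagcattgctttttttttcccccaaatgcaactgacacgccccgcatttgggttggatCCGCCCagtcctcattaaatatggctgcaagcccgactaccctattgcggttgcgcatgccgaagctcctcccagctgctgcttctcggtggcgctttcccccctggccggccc
The Lrp2 window was 66.4% G and C and held GC boxes 143 and 88 bases before the start. The Amn window, at 61.2% G and C, held a GC box 35 bases and an E-box 26 bases before the start. The Clcn5 window, at 52.4%, held a GC box 114 bases before the start. The window before the other Clcn5 start, not shown, was 41.2% G and C and held no GC box. The Cubn window was 39.6% G and C and held neither motif. Of 32851 RefSeq promoter windows searched in the same way, 32.7% held a GC box and 6.02% the E-box. The receptor pair and the chaperone Amn therefore had promoters of different base composition, with no searched motif in all of them.

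Megalin RNA was present in PT cells of every mouse at a narrow range of levels. Lrp2 was at 1096 ± 79.9 CPM (mean ± SD, n = 9 mice) in PT cells, with a lowest mouse at 969 and a highest at 1191. Cubn was at 180 ± 11.5 CPM, Amn at 210 ± 36.3 CPM, Dab2 at 328 ± 60.7 CPM and Clcn5 at 72.4 ± 6.10 CPM. Between mice the receptors varied least for their level, and the adaptor Dab2 and the chaperone Amn varied most. CPM values were not divided by transcript length, so they were compared between cells and mice and not between genes.

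A UMI of Lrp2 was found in 85.2% ± 2.13 of PT cells, and UMIs of Cubn, Amn, Dab2 and Clcn5 in 39.8%, 47.8%, 53.3% and 20.7% (n = 9 mice). After each cell was thinned to 1000 UMIs these shares were 60.3% ± 2.55, 15.3% ± 1.03, 19.4% ± 3.10, 24.7% ± 3.20 and 6.44% ± 0.53. T cells, which should lack the uptake receptors, still gave 34.5%, 7.87%, 8.99%, 13.1% and 3.33% in the same order after thinning, and 57.4%, 21.99%, 24.6%, 31.8% and 11.2% before it. The median UMI count was 2883 in PT cells and 2331 in T cells. PT shares were thus above those of T cells for all 5 genes, and a UMI outside the PT did not by itself mark a cell that made the RNA.

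PT RNA was measured in every other class. To show where an uptake gene exceeded this background, its level in a class was set against its level in the PT cells of the same mouse, and the same percentage was taken for 18 PT marker genes. The median PT marker stood at 35.3% ± 13.6 of its PT level in CD-IC cells, 41.6% ± 8.46 in macrophages, 51.5% ± 7.27 in T cells and 62.5% ± 6.37 in cells of the loop of Henle (LOH). Since classes share a mouse's library and its PT RNA, differences between classes are descriptions with no test.

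Lrp2, Cubn and Amn followed the PT markers in the other classes. In the 11 other classes besides cycling cells, the level of each of these genes relative to PT averaged 0.91 to 1.23 times that of the median PT marker. Lrp2 was above the median marker in 9 of 9 mice in CD-IC (1.17 times) and CD-PC cells (1.16 times), and Amn in 8 of 9 in stromal cells (1.23 times), and they passed the highest marker there in 0, 1 and 2 mice. Lrp2 was also above it in 8 of 9 mice in connecting tubule, distal convoluted tubule, LOH, endothelial cells and macrophages (1.02 to 1.11 times). Cubn was above it in 8 of 9 mice in macrophages (1.11 times), and passed the highest marker in 3 mice in T cells. In cycling cells the averages were 1.53 for Lrp2, 1.33 for Cubn and 1.72 for Amn. The cycling cluster, of 470 cells, also raised 5 PT markers, so its values are not read as an excess over PT RNA from other cells. Lrp2 fell in order from PT to cycling cells (927 ± 143 CPM), podocytes (739 ± 230), B cells (726 ± 178), LOH (709 ± 86.9), connecting tubule (CNT, 645 ± 150), T cells (608 ± 95.9), endothelial cells (581 ± 115), distal convoluted tubule (DCT, 546 ± 137), macrophages (501 ± 99.1), stromal cells (491 ± 73.5), principal cells of the collecting duct (CD-PC, 467 ± 133) and CD-IC (438 ± 130). PT lay above cycling cells by more than either SD, and below PT each class lay within the larger SD of its neighbour. Cubn was next highest in podocytes (144 ± 48.5 CPM), cycling cells (136 ± 37.6) and LOH (113 ± 12.7), and Amn in cycling cells (205 ± 51.7), podocytes (159 ± 28.0) and B cells (152 ± 40.4), the level of Amn in cycling cells lying within 1 SD of PT. Both were lowest in CD-IC cells, at 69.7 ± 22.2 and 70.9 ± 19.0 CPM.

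Clcn5 had its highest level outside the PT. CD-IC cells, which secrete acid or base through vacuolar proton pumps, held Clcn5 at 280 ± 88.3 CPM, with a lowest mouse at 139.7 and a highest at 399. This was 384% ± 108 of the PT level of the same mouse, and in 9 of 9 mice it was above the ratio of every PT marker. Cycling cells came next at 81.7 ± 43.9 CPM, followed by PT at 72.4 ± 6.10, LOH at 59.5 ± 7.04 and podocytes at 59.2 ± 29.8 CPM. CD-IC cells lay above these by more than their SD, PT lay above LOH by more than either SD, and the order below LOH, from B cells (56.3 ± 18.7) to endothelial cells (38.8 ± 7.96), held no neighbours separated by more than the larger SD. Clcn5 also exceeded the PT background in other classes, being above the median PT marker ratio in 9 of 9 mice in CD-PC (1.88 times), DCT (1.59 times) and LOH (1.32 times), and above the highest PT marker in 8, 6 and 7 of the 9 mice. It was above the median in 9 of 9 mice in macrophages (1.29 times) and in 8 of 9 in stromal cells (1.34 times), and above the highest marker there in 4 and 3 mice. Cycling cells were at 1.97 times (above the median in 9 of 9 mice and the highest marker in 3), which is not read as an excess because their cluster raised PT markers. After thinning, 20.04% ± 6.61 of CD-IC cells held a Clcn5 UMI, against 6.44% of PT cells.

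Dab2 also exceeded the PT background in some classes. CD-IC cells held it at 241 ± 33.4 CPM, or 74.4% ± 8.48 of the PT level, and macrophages at 202 ± 67.6 CPM, or 60.5% ± 11.8. The ratio was above the highest PT marker in 9 of 9 mice in CD-IC cells and in 7 of 9 in macrophages, a cell type known to express Dab2. CD-PC cells, at 47.5% ± 11.4, were above the median PT marker in 9 of 9 mice (1.31 times) and above the highest in 5 of 9. Endothelial cells, at 60.8% ± 10.99, passed the median in 7 of 9 mice and the highest in 4 of 9. By level, Dab2 fell from PT to podocytes (246 ± 72.6 CPM), cycling cells (244 ± 75.7), CD-IC cells, B cells (220 ± 130), LOH (210 ± 46.4) and macrophages, and ended with DCT cells (154 ± 62.6), with PT the 1 class that stood apart from its neighbour by more than either SD. In DCT cells Dab2 was below the median PT marker ratio in 9 of 9 mice (0.933 times).

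**Figure D1:**
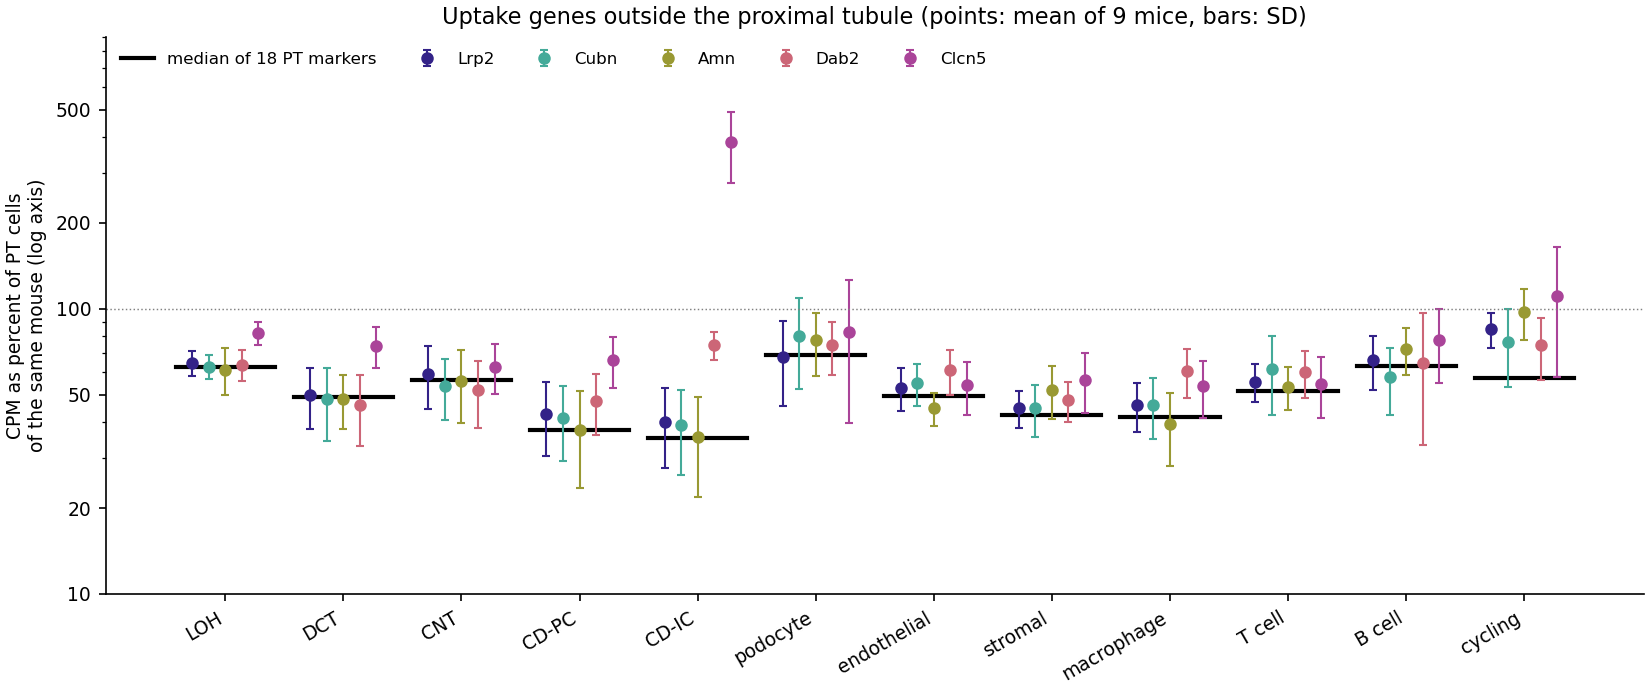
Level of each uptake gene in a cell class as a percentage of its level in PT cells of the same mouse (log axis; points and bars, mean and SD over 9 mice; black line, median of 18 PT markers). Lrp2, Cubn and Amn sit near the black line, whereas Clcn5 in CD-IC cells stands at 384% and Dab2 in CD-IC cells at 74.4%.

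The genes whose profiles over 14 classes (the S1-like and S3-like PT cells described next, and the 12 other classes) were closest to each uptake gene followed the same division. Among 12323 genes, Lrp2 was closest to Fbp1, a gluconeogenic enzyme and one of the PT markers (Pearson r = 0.995 over 14 class means), then to Sord (0.990) and Pcx (0.988). Cubn was closest to Pdzk1 (0.981), A1cf (0.980) and Slc7a9 (0.977), and Amn to Hnf4a (0.985), Sfxn1 (0.983) and Glyat (0.980). Dab2 was closest to Atp6v1b2 (0.939), a vacuolar proton pump subunit, Rab11fip3 (0.935) and Tnfaip8 (0.898). Clcn5 was closest to Scand1 (0.960), Car12 (0.959), which encodes a carbonic anhydrase, and Atp6v0c (0.955), another proton pump subunit. Lrp2 correlated with Cubn at 0.962 and with Amn at 0.955, but with Dab2 at 0.748 and with Clcn5 at 0.07. The 14 points share libraries and PT RNA, so these are descriptions.

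Along the PT the uptake genes were higher in the first segment. PT clusters were called S1-like (67383 cells) or S3-like (45761 cells) from segment markers. Only 202 of the S3-like cells, in 1 cluster, carried the late-segment genes Cyp7b1, Slc22a19 and Serpina1f, so this class mostly rests on other markers. Dab2 had the steepest difference, with an S1-like to S3-like log2 ratio of 1.04 ± 0.18 (2.06-fold) and a range of 0.78 to 1.28 over 9 mice. Cubn followed at 0.66 ± 0.10 (1.58-fold), Clcn5 at 0.54 ± 0.13 (1.45-fold) and Lrp2 at 0.42 ± 0.12 (1.34-fold), each above 0 in 9 of 9 mice. Amn was at 0.24 ± 0.19 and fell below 0 in 1 mouse, AKI-CKD mouse 1 (−0.05). With the Harmony alignment, S1-like cells thus held more RNA of both receptors and of the adaptor, and the chaperone differed least. Without Harmony, an S3-like cluster of 9385 cells raised 3 S1 and 4 S3 markers. It held Dab2 at 817, Lrp2 at 1511 and Cubn at 256 CPM. S1-like clusters there held Dab2 at 270 to 686 CPM, so the size and order of the ratios above apply to clusters built with Harmony.

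The segment difference was not the same in every cluster built with Harmony, and some clusters went against it. An S1-like cluster of 11667 cells led by Snhg11, Nhs and Slc5a12 held Lrp2 at 1579 ± 139 CPM, Cubn at 294 ± 25.2 and Dab2 at 888 ± 194, with Amn at 193 ± 31.0. An S3-like cluster of 25443 cells led by Ugt2b37 and Slco1a1 held Lrp2 at 748 ± 68.0, Cubn at 100.2 ± 9.58, Dab2 at 155 ± 18.5 and Clcn5 at 45.8 ± 5.28 CPM, but Amn at 211 ± 44.6. Another S3-like cluster, of 10320 cells, held Lrp2 at 1209 ± 164, Cubn at 196 ± 22.2 and Dab2 at 343 ± 80.5 CPM. The S1-like cluster with most cells (32436) held less of each on average, with Lrp2 at 1132 ± 149.8, Cubn at 169 ± 20.5 and Dab2 at 303 ± 32.8 CPM, and the remaining S1-like cluster held Dab2 at 356 ± 66.1 CPM. Median UMI counts of the first 4 clusters were 4258, 2775, 5138 and 1943.

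The segment difference was set side by side between the groups with exact two-sided permutation tests of 3 against 3 mice, for which 0.1 is the smallest possible p, over 10 tests. The smallest p was that of Lrp2 with EGT, whose log2 ratio was 0.44, 0.47 and 0.64 in the AKI-CKD mice and 0.24, 0.38 and 0.40 in the AKI-CKD + EGT mice (exact permutation p = 0.1). Against Control the AKI-CKD difference was 0.10 for Lrp2 (exact permutation p = 0.4), and the other 8 tests gave p from 0.3 to 0.8. No test could pass 0.05 in this design, and the share of all genes with groups apart was not computed, so no change between groups is read from these values.

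**Figure D2:**
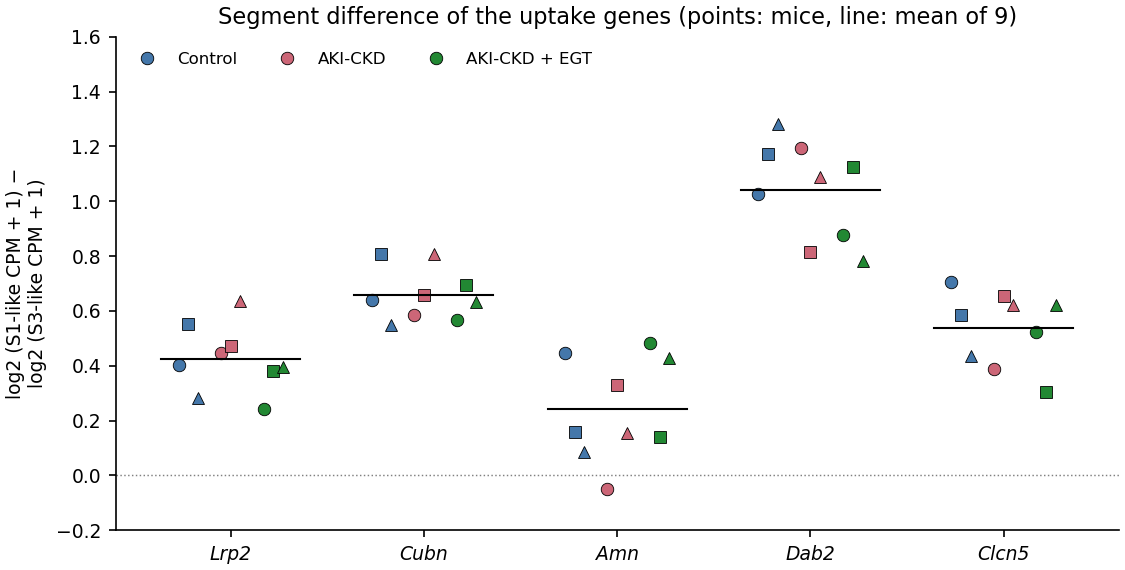
Log2 ratio of the S1-like to the S3-like level of each uptake gene (CPM plus 1), 1 point per mouse coloured by group, with the mean of 9 mice as a line. Dab2 is highest, with mice from 0.78 to 1.28, and Amn is the only gene with a mouse below 0.

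The megalin gene did not pass the test in PT cells after cisplatin. After scaling by the trimmed mean of M values (TMM), Lrp2 was at 1083, 1047 and 1222 CPM in the Control mice and at 1219, 1125 and 1245 CPM in the AKI-CKD mice. The groups overlapped, and the difference was 0.10 ± 0.15 (log2 ± SE; 95% interval −0.28 to 0.47; edgeR quasi-likelihood test, adjusted p = 0.81 over 17980 genes). The interval leaves room for changes of either sign.

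Cubn and its chaperone Amn were higher in each AKI-CKD mouse than in any Control mouse, by amounts that did not pass the test. Cubn was at 169, 173 and 173 CPM in Control and at 205, 192 and 213 CPM in AKI-CKD, a difference of 0.24 ± 0.13 (edgeR adjusted p = 0.48). Amn was at 167, 211 and 214 CPM in Control and at 231, 257 and 285 CPM in AKI-CKD, a difference of 0.39 ± 0.23 (edgeR adjusted p = 0.53). The shares of PT cells with a UMI after thinning lay the same way, 14.5% ± 0.249 against 16.1% ± 1.31 for Cubn and 18.4% ± 2.09 against 21.7% ± 1.41 for Amn (n = 3 mice each, exact permutation p = 0.1 for both, the smallest possible). These shares come from the same UMIs of the same cells, so they are not a second observation. The share of all genes with such separation was not computed.

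The adaptor lay the other way. Dab2 was at 422, 353 and 367 CPM in Control and at 346, 263 and 274 CPM in AKI-CKD, a difference of −0.37 ± 0.15 with an unadjusted p = 0.032 (edgeR adjusted p = 0.42). The TMM-scaled groups did not overlap, whereas in plain CPM the lowest Control mouse (331) and the highest AKI-CKD mouse (332) met. The thinned share was 26.9% ± 2.33 in Control and 21.4% ± 3.18 in AKI-CKD (n = 3 each, exact permutation p = 0.2). Clcn5 was at 74.2, 73.4 and 80.0 CPM in Control and at 77.1, 77.3 and 85.5 CPM in AKI-CKD, which overlapped (0.08 ± 0.11, edgeR adjusted p = 0.79).

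None of the 5 genes was called in AKI-CKD against Control, where the background was 8 of 17980 genes, or 0.0445%. Groups that did not overlap, as for Cubn, Amn and Dab2, were found for 21.1% of all genes tested in PT cells, so this pattern was common. The thinned share of Lrp2-positive cells differed by 0.193 percentage points (exact permutation p = 1) and that of Clcn5-positive cells gave p = 0.9 (n = 3 each).

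With EGT, Clcn5 had the smallest p of the uptake genes in PT cells. It was at 62.6, 60.2 and 63.8 CPM in the AKI-CKD + EGT mice, below all AKI-CKD mice (77.1, 77.3 and 85.5 CPM), a difference of −0.36 ± 0.11 with an unadjusted p = 0.0070 (edgeR adjusted p = 0.233). DESeq2 gave a similar difference of −0.36 with an adjusted p of 0.0325, so the call depended on the tool. The separation of the groups depended on the scaling, since in plain CPM AKI-CKD + EGT mouse 3 stood at 77.7, above all 3 AKI-CKD mice (72.6 to 75.9), and mice 1 and 2 stood below, at 63.0 and 63.4. The thinned share was 6.05% ± 0.675 against 6.63% ± 0.368 (n = 3 each, exact permutation p = 0.3).

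Cubn was at 187, 159 and 151 CPM in the AKI-CKD + EGT mice, below the AKI-CKD mice (192 to 213), a difference of −0.30 ± 0.13 with an unadjusted p = 0.039 (edgeR adjusted p = 0.31). In plain CPM these groups overlapped, at 188, 167 and 184 with EGT against 197, 180 and 189 in AKI-CKD. Amn spread widely, at 253, 183 and 120.4 CPM, and its difference from AKI-CKD was −0.47 ± 0.23 (edgeR adjusted p = 0.36). It was −0.23 without AKI-CKD + EGT mouse 3 and −0.77 without AKI-CKD + EGT mouse 1. Lrp2 was at 1141, 921 and 899 CPM, with mouse 1 inside the AKI-CKD range (−0.28 ± 0.15, edgeR adjusted p = 0.41). In plain CPM Lrp2 was at 1148, 969 and 1094 with EGT against 1169, 1057 and 1106 in AKI-CKD. On that scale mouse 3 also lay inside the AKI-CKD range, so the size of the Lrp2 difference depended on the scaling. Dab2 was at 332, 300.5 and 283 CPM, inside the AKI-CKD range of 263 to 346, and the difference was 0.05 ± 0.15 (edgeR adjusted p = 0.89, 95% interval −0.32 to 0.43).

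No gene was called in PT cells between AKI-CKD + EGT and AKI-CKD by edgeR (0% of 17980, with 2735 at an unadjusted p under 0.05), whereas DESeq2 called 437. Groups without overlap made up 21.1% of all genes, and 2 of the 5 uptake genes, Cubn and Clcn5, were among them. The comparison uses the same AKI-CKD mice as the one with Control, so opposite signs in these comparisons are not independent of each other.

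Against Control, the AKI-CKD + EGT mice had lower TMM-scaled PT levels of Clcn5 and Dab2 in every mouse, without a call, and in plain CPM the groups overlapped for both. Clcn5 differed by −0.29 ± 0.11 (unadjusted p = 0.024, edgeR adjusted p = 0.61) and Dab2 by −0.32 ± 0.15 (unadjusted p = 0.060, edgeR adjusted p = 0.71). Lrp2, Cubn and Amn differed by −0.18, −0.05 and −0.09, with overlapping groups. Here 0% of the 17980 genes were called (1274 at an unadjusted p under 0.05) and 10.4% had groups that did not overlap.

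**Figure D3:**
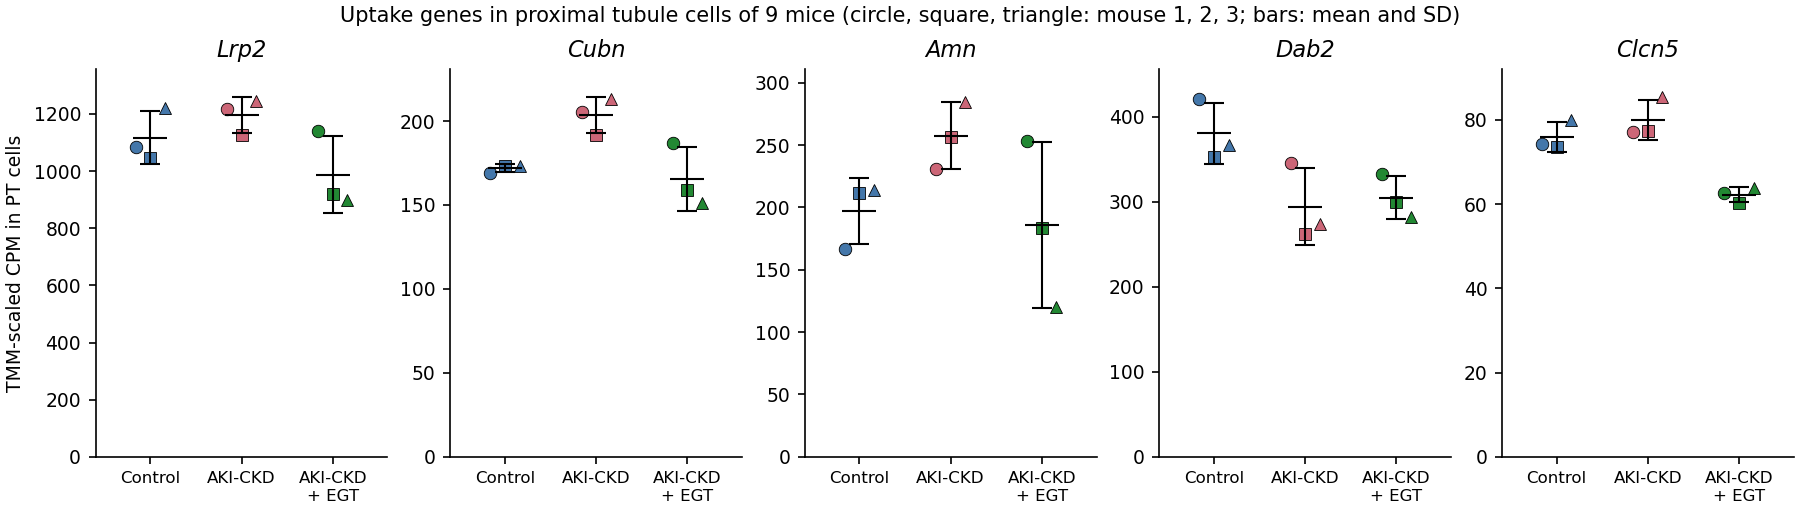
TMM-scaled CPM of the uptake genes in PT cells, 1 point per mouse (circle, square and triangle for mouse 1, 2 and 3), with mean and SD of each group of 3. Cubn and Amn of the AKI-CKD mice lie above, and Dab2 below, every Control mouse, and Clcn5 of the AKI-CKD + EGT mice (60.2 to 63.8) lies below every other mouse, with none of these differences passing the adjusted test.

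Clcn5 in CD-IC cells was the 1 call among the uptake genes. It was at 295, 269 and 377 TMM-scaled CPM in the Control mice, 364, 345 and 387 in the AKI-CKD mice, and 180.3, 220.2 and 153 in the AKI-CKD + EGT mice, from 74 to 307 UMIs per mouse. All AKI-CKD + EGT mice lay below all other mice, in plain CPM as well. The difference from AKI-CKD was −0.99 ± 0.19 on the log2 scale (edgeR adjusted p = 0.0160, lower in 3 of 3 mice), or 185 ± 33.6 against 366 ± 20.7 CPM. From Control it was −0.76 ± 0.20 with an unadjusted p = 0.0012, which did not pass the test (edgeR adjusted p = 0.39), and AKI-CKD differed from Control by 0.23 ± 0.19 (edgeR adjusted p = 0.68).

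The background in AKI-CKD + EGT against AKI-CKD was high, with 353 of 7843 genes called in CD-IC cells, or 4.5%, and 21.9% of genes without overlap between the groups. Several measures moved with it. The median UMI count of a CD-IC cell was 4198 to 5173 in the AKI-CKD mice and 2506 to 4189 in the AKI-CKD + EGT mice. The 8 CD-IC markers summed to 11241 to 12469 CPM in the AKI-CKD mice and to 5037 to 11027 CPM in the AKI-CKD + EGT mice. The 18 PT markers summed to 14735 to 42584 and 32654 to 64533 CPM, and the median mitochondrial share of a CD-IC cell was 1.02% to 1.64% and 2.00% to 8.96%. Markers of the CNT summed to 15366 to 26041 and 6521 to 19844 CPM in these CD-IC cells, which overlapped. In every AKI-CKD mouse this was above the CD-IC marker sum. The CD-IC markers did not move as a set. The proton pump subunit Atp6v1g3 made up 62.8% of their sum and was at 8171, 8298 and 7590 CPM in the AKI-CKD mice and at 6917, 4548 and 2897 CPM with EGT. It was 1 of 4 markers that were lower with EGT without overlap, with Foxi1, Aqp6 and Insrr, and the other 4 overlapped. Among these the anion exchangers Slc26a4, at 756, 830 and 900 CPM against 1071, 880 and 544, and Slc4a9, at 609, 570 and 447 CPM against 712, 613 and 515.0, were on average no lower with EGT.

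Relative to the summed CD-IC markers the Clcn5 difference from AKI-CKD was smaller and the groups overlapped, whereas they did not overlap with Atp6v1g3 left out of the sum. Per 100 CPM of these markers, Clcn5 was at 2.83, 2.69 and 3.19 CPM in the AKI-CKD mice and at 1.604, 2.69 and 2.77 in the AKI-CKD + EGT mice, or 2.91 ± 0.257 against 2.35 ± 0.651 (n = 3 each, exact permutation p = 0.2). AKI-CKD + EGT mouse 1 was low on this measure as well, while mice 2 and 3 were at or inside the edge of the AKI-CKD range. The Control mice, at 2.80, 3.22 and 3.24 (3.09 ± 0.247), all lay above the AKI-CKD + EGT mice (n = 3 each, exact permutation p = 0.1, the smallest possible). Per 100 CPM of the 7 markers other than Atp6v1g3, Clcn5 was at 8.22, 8.37 and 9.83 CPM in the AKI-CKD mice and at 4.30, 6.07 and 6.53 CPM with EGT, with no overlap (n = 3 each, exact permutation p = 0.1). Taken to each marker singly, the ratio was lower with EGT without overlap for 4 of the 8 (Slc26a4, Slc4a9, Atp6v0d2 and Insrr). It overlapped for the other 4 (Atp6v1g3, Slc4a1, Foxi1 and Aqp6). Relative to the PT level of the same mouse, the log2 ratio was 2.21 ± 0.04 for AKI-CKD against 1.36 ± 0.48 for AKI-CKD + EGT (n = 3 each, no overlap, exact permutation p = 0.1). The part that PT RNA and cell quality play in the call was not tested.

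The call rested on few mice. The adjusted p rose to 0.057 without AKI-CKD mouse 1, to 0.065 without AKI-CKD mouse 2 and to 0.0998 without AKI-CKD + EGT mouse 3, while the difference stayed between −1.14 and −0.85 with any 1 mouse left out.

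The receptor estimates in CD-IC cells were positive with EGT and did not pass the test. Lrp2 was at 344, 329.6 and 366 CPM in AKI-CKD mice against 402, 477 and 793 CPM with EGT, a difference of 0.70 ± 0.24 (edgeR adjusted p = 0.093), and Cubn differed by 0.79 ± 0.27 (edgeR adjusted p = 0.096). Without AKI-CKD + EGT mouse 3 these were 0.35 and 0.51, and without AKI-CKD + EGT mouse 1 they were 0.88 and 0.96 and passed the test (edgeR adjusted p = 0.0144 and 0.0171). Dab2 was at 237, 177 and 225 CPM in AKI-CKD mice against 278, 260.3 and 284 CPM with EGT, which did not overlap (0.36 ± 0.18, edgeR adjusted p = 0.25). Relative to PT, Lrp2 in CD-IC cells averaged 1.17 times the median PT marker and was above it in 9 of 9 mice, and Cubn averaged 1.14 times (6 of 9 mice). The PT background moved the same way, since the median PT marker in CD-IC cells stood at 0.201, 0.228 and 0.295 times its PT level in AKI-CKD and at 0.314, 0.473 and 0.617 times with EGT, with no overlap. Against this background Lrp2 was at 1.04 to 1.42 times in AKI-CKD and 1.04 to 1.09 times with EGT, and Cubn at 0.844 to 1.45 and 0.960 to 1.14 times, so neither was higher with EGT on this measure. Dab2 was at 2.91 to 3.45 times the background in AKI-CKD and at 1.22 to 2.59 times with EGT.

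**Figure D4:**
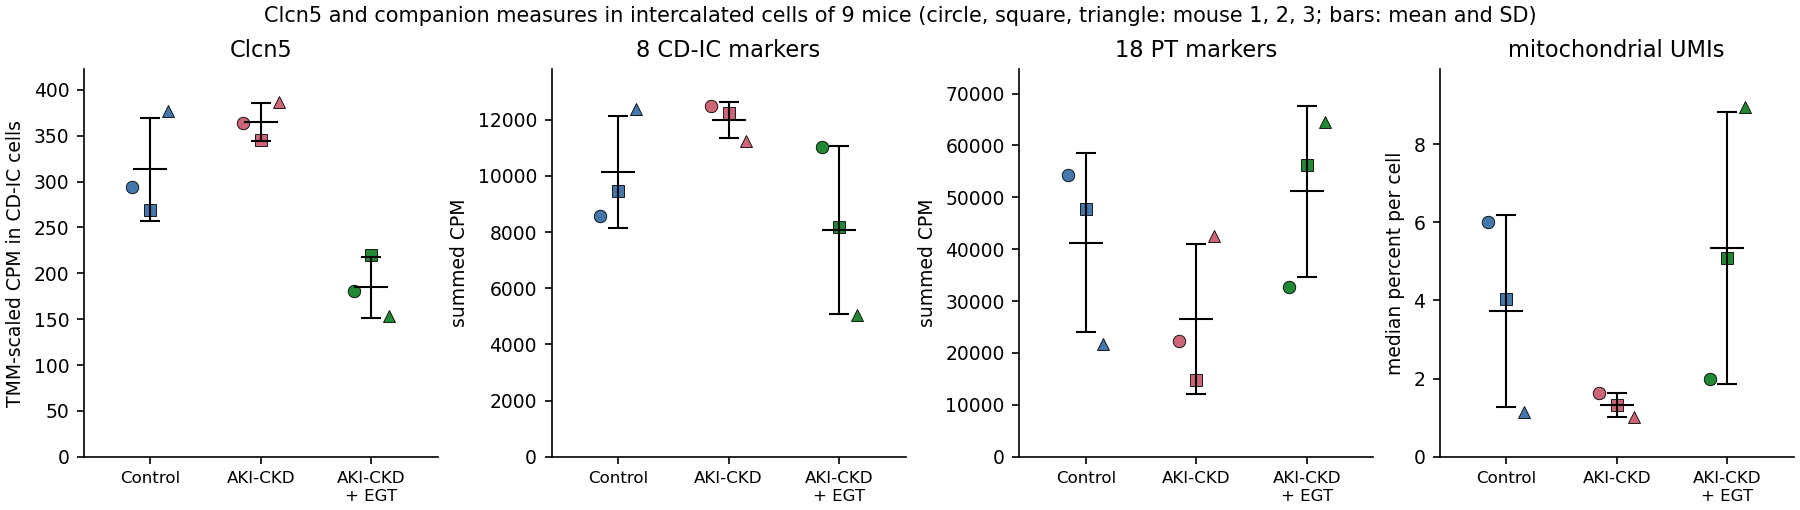
Clcn5 (TMM-scaled CPM), the summed CPM of 8 CD-IC markers, the summed CPM of 18 PT markers and the median mitochondrial percentage per cell in CD-IC cells, 1 point per mouse with mean and SD per group. The AKI-CKD + EGT mice are lowest in Clcn5 (153 to 220.2). Their CD-IC marker sums (5037 to 11027 CPM) lie below all AKI-CKD mice (11241 to 12469 CPM). Their mitochondrial shares (2.00% to 8.96%) lie above all AKI-CKD mice (1.02% to 1.64%), whereas the PT marker sums overlap. With Control, the marker sums and mitochondrial shares overlap, and the extremes (5037 CPM and 8.96%) are those of single mice.

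Dab2 lay below Control in AKI-CKD mice in every class tested. Each of the 11 classes with at least 20 cells in every mouse gave a lower Dab2 estimate in AKI-CKD than in Control, from −1.46 in B cells to −0.29 in CD-IC cells. In DCT cells it was at 283, 157 and 145 TMM-scaled CPM in Control and at 108, 77.7 and 119.7 CPM in AKI-CKD, so every AKI-CKD mouse was lower (−0.95 ± 0.30, edgeR adjusted p = 0.48). Without Control mouse 1 the DCT difference was −0.575. The PT markers moved with it in DCT cells, where the median marker stood at 0.661, 0.478 and 0.456 times its PT level in Control and at 0.369, 0.329 and 0.492 times in AKI-CKD. Dab2 was at 0.907 to 0.983 times that background in Control and at 0.880 to 0.956 times in AKI-CKD mice, so these ranges overlapped. In macrophages it was at 327, 259 and 229.6 CPM in Control and at 189, 113 and 160.0 CPM in AKI-CKD (−0.85 ± 0.24, edgeR adjusted p = 0.33), and at 1.37 to 1.90 times the PT marker background in Control and 1.25 to 1.35 times in AKI-CKD. In 9 of the 11 classes the unadjusted p was under 0.05. So it was for 2014 of 17980 genes in PT, 1046 of 11134 in DCT and 636 of 7280 in macrophages. In 7 classes the groups did not overlap, as for 17.5% of all genes over the 11 classes. How many of all genes had the same sign in every class was not counted. None passed the adjusted test, the lowest adjusted p being 0.186 in B cells (0.0389 without Control mouse 2).

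With EGT, Dab2 was higher than in AKI-CKD in 11 of 11 classes, from 0.05 in PT to 1.00 in B cells. The unadjusted p was under 0.05 in 5 classes. So it was for 1363 of 11134 genes in DCT and 1048 of 8522 in the CNT. The groups did not overlap in 3 classes (as for 17.8% of all genes over the classes). No class gave a call for Dab2 (lowest edgeR adjusted p = 0.25, in CD-IC cells). How many of all genes kept the same sign over the classes was not counted here either. In the CNT it was at 157, 199 and 256 CPM against 114, 101 and 140.1 in AKI-CKD (0.80 ± 0.27, edgeR adjusted p = 0.29). The highest of these was AKI-CKD + EGT mouse 3, which held the most CNT cells (20.9%). It also held the most cells of CD-PC (27.05%) and of the larger DCT (27.1%) and LOH (24.2%) clusters. Without Harmony the CNT cluster held 2727 cells with Dab2 at 119 CPM, against 4111 cells and 180 CPM with it. The part of this mouse in the Dab2 estimates was not tested. The median PT marker in CNT cells was at 0.347, 0.388 and 0.603 times its PT level in AKI-CKD and at 0.460, 0.695 and 0.744 times with EGT. Dab2 was at 0.914 to 0.984 times this background in AKI-CKD and at 0.938 to 1.02 times with EGT, which overlapped. The classes are not independent, because the cells of a mouse share 1 library and PT RNA was found in each, and both comparisons use the same AKI-CKD mice. In PT cells themselves the EGT difference was near 0.

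Over the 55 tests of 5 genes in 11 classes, 0 were called in AKI-CKD against Control (background over the 11 classes 0.0342% of genes), 1 with EGT against AKI-CKD (background 0.36%), and 0 with EGT against Control (background 0.00201%, with 10.5% of genes not overlapping). Lrp2 was lower in AKI-CKD than in Control in 10 of 11 classes and Cubn in 9 of 11, PT being the class with the highest estimate for both. Outside the PT both genes were set against the PT marker background in DCT cells, and Lrp2 also in stromal cells. In stromal cells Lrp2 was at 0.934 to 1.53 times that background in Control and 0.927 to 0.946 times in AKI-CKD, which overlapped. In DCT cells Lrp2 was at 1.01 to 1.03 times that background in Control and 0.947 to 1.09 times in AKI-CKD. Cubn was at 0.934 to 1.04 and 0.790 to 0.943 times, so the ranges overlapped for both. Amn ranged from −0.26 in CD-IC to 0.59 in stromal cells.

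**Figure D5:**
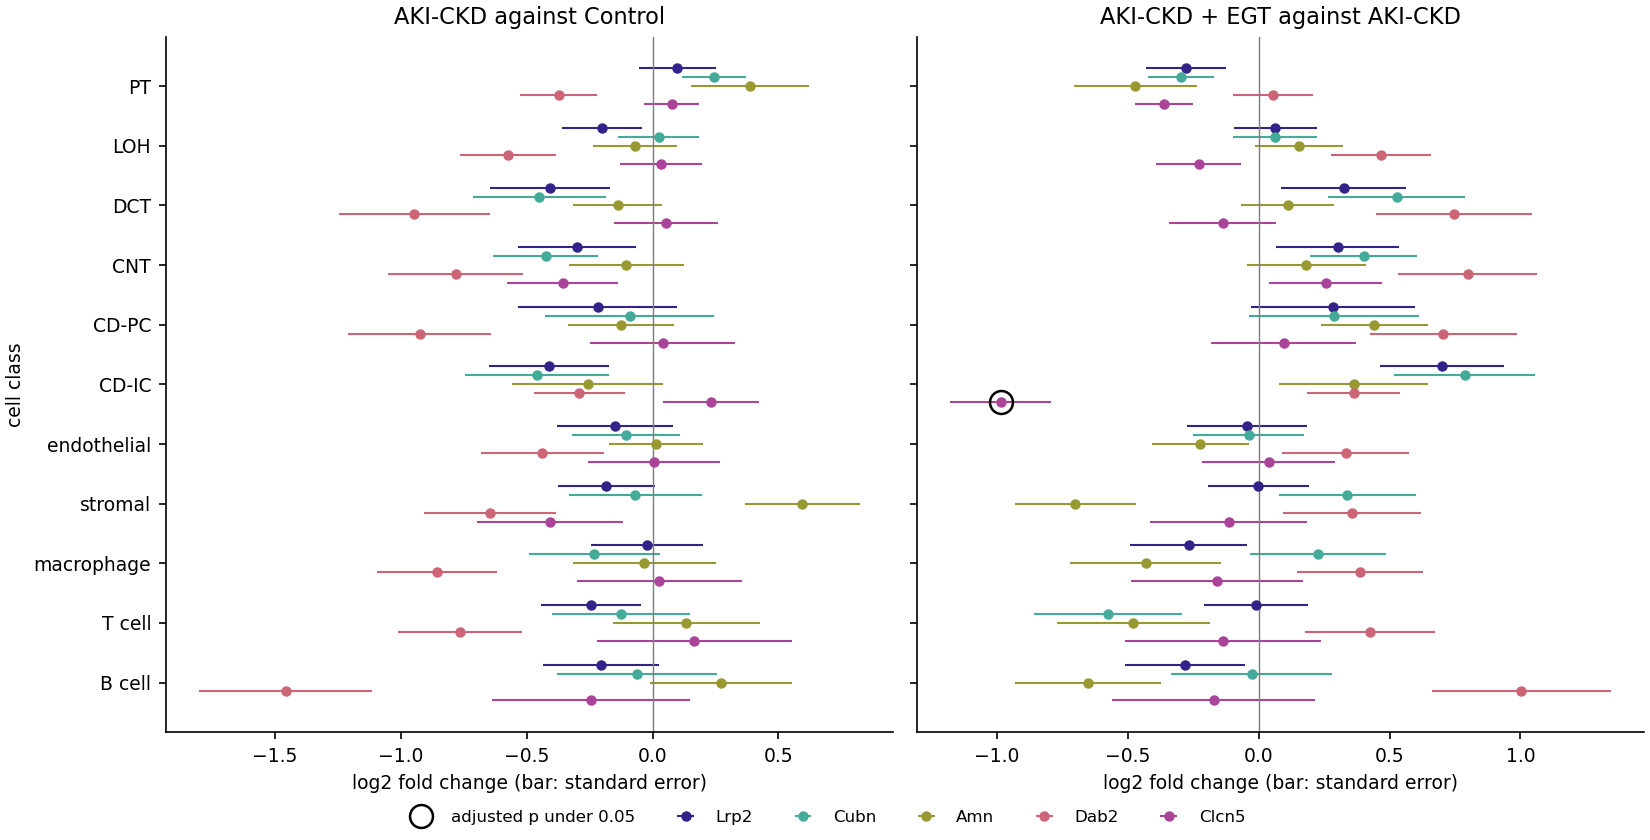
Log2 fold changes with standard errors of the uptake genes in 11 cell classes, AKI-CKD against Control on the left and AKI-CKD + EGT against AKI-CKD on the right. The ringed point is Clcn5 in CD-IC cells (−0.99), the only one with an adjusted p under 0.05, and Dab2 lies left of 0 in all classes on the left and right of 0 in all classes on the right.

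The rest of the uptake pathway was read in PT cells from 6 lists of its other genes, and no listed gene was called in either comparison. In AKI-CKD against Control, 13 of 15 lysosomal degradation genes had positive estimates (median 0.28), with Ctsz, a lysosomal cathepsin, at 0.65 ± 0.16 (unadjusted p = 0.0020, edgeR adjusted p = 0.29). Of 30 genes for adaptors, clathrin coat and vesicle trafficking, 23 were positive (median 0.14), and Ehd1, a recycling endosome protein, was at 0.32 ± 0.13. Of 21 acidification genes, 15 were positive (median 0.11), with the proton pump subunit Atp6v0b at 0.35 ± 0.15. The median over all 17980 genes was −0.02.

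Other endocytic receptors were divided, 7 of 15 being positive (median −0.04). Of 7 transcription factors linked to the receptors 4 were positive (median 0.02). Of 11 tested ligand genes, out of 12, 8 were positive (median 0.27), with Gc, the vitamin D carrier that megalin takes up, at 0.95 ± 0.27 (edgeR adjusted p = 0.32).

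The estimates with EGT against AKI-CKD lay mostly below 0. All 15 lysosomal genes were negative (median −0.27), with Ctsa, a lysosomal carboxypeptidase, at −0.48 ± 0.14 (edgeR adjusted p = 0.23). Among the acidification genes 19 of 21 were negative (median −0.20), with Atp6v1e1 at −0.43 ± 0.16, and among the adaptor and trafficking genes 25 of 30 (median −0.17), with the AP2 subunit Ap2s1 at −0.45 ± 0.14. Other receptors had a median of −0.07 (Lrp10 at −0.28 ± 0.11), transcription factors of 0.01 (Rxra at −0.36 ± 0.15) and ligands of −0.30, with Clu, which encodes clusterin, higher at 1.098 ± 0.35 (edgeR adjusted p = 0.24). The median over all genes was −0.01. These estimates are TMM-scaled, and the lists were not taken in plain CPM. The scaling moved PT levels most in mouse 3 of these groups. Lrp2 went from 1094 plain to 899 scaled CPM in AKI-CKD + EGT mouse 3, and from 1106 to 1245 in AKI-CKD mouse 3. The part that scaling plays in the list medians was not tested. Since the AKI-CKD mice enter both comparisons, the change of sign between them is not a second observation.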

How the data were processed

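Single-cell RNA from kidneys of 9 mice was captured by its poly(A) tail in droplets. The authors deposited 1 matrix of UMI counts per mouse, written by PISA 1.0 per the file headers, and the submitters' notes name GRCm39. The aligner and the annotation are not given in the sources used here. The deposited counts are not normalized and were used as such, with 0 further columns.

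Barcodes were kept from 1000 UMIs and 500 genes upward and up to a mitochondrial share of 15%. A numpy version of Harmony, which aligns libraries, was run by mouse on 30 principal components of 2000 variable genes. Cells were then clustered on a shared-neighbour graph with the Leiden method of igraph 0.11.9 (resolution 1.1, 20 neighbours). Clusters were named from markers where at least 3 were raised 1.5-fold, a rule set after the clusters had been seen. A haemoglobin-led cluster of 4937 cells and clusters of 1644, 1629 and 380 cells stayed unnamed. Doublets were not called, and the 5% of cells with most UMIs were removed as an alternative. Shares were taken after thinning to 1000 UMIs.

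Counts were summed per mouse and class and tested with edgeR 4.0.16 (R 4.3.3; filterByExpr, TMM, quasi-likelihood F test, all 9 mice in 1 fit, Benjamini-Hochberg over all genes of a class and comparison). A gene was called at an adjusted p under 0.05, and 95% intervals used 6 residual degrees of freedom. Podocytes and cycling cells had under 20 cells in a mouse and were not tested. Single values were compared by exact two-sided permutation tests. UMI counts limit the precision, and thinned shares carry the spread between mice only. On simulated data for PT cells, AKI-CKD against Control, with 17614 genes, the test recovered 45 of 100 genes changed by a log2 fold of 1 and 77 of 100 changed by 2, with 8 false calls.

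The uptake genes, markers and pathway lists were chosen with earlier results of these data known. Named pathway genes are those called in PT cells, otherwise the smallest p per list and comparison (some of these are not reported here), and the most similar genes are the 3 with the highest Pearson correlation over class means of log2(CPM + 1), among genes with at least 10 CPM in a class. Alternatives were DESeq2 1.42.0, no count filter, other library sizes, only the 6 mice compared, a replicate block, other mitochondrial limits, no Harmony, another pseudocount and leaving out each mouse. The ratios of Clcn5 to single CD-IC markers, and to their sum without Atp6v1g3, were chosen after seeing the data.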

Additional observations from a re-analysis of the deposited data

Results flagged for a closer look

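Lrp2 lay in opposite directions in different classes when AKI-CKD + EGT was set against AKI-CKD. It was higher by 0.70 in CD-IC cells and lower by 0.28 in B cells on the log2 scale (−0.28). The TMM-scaled groups did not overlap in either class. In a single class this held for 17.8% of all genes over the 11 classes tested. How many genes lie in opposite directions without overlap was not counted. Neither Lrp2 difference passed the test (edgeR adjusted p = 0.093 and 0.78). In CD-IC cells Lrp2 was at 1.04 to 1.42 times the PT marker background in AKI-CKD and 1.04 to 1.09 times with EGT. Without AKI-CKD + EGT mouse 3 the CD-IC difference was 0.35. In plain CPM the B cell groups overlapped, at 626, 650.3 and 846 in AKI-CKD and 610.4, 680.0 and 532 in AKI-CKD + EGT mice. The difference between these classes was not tested.

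Cubn was higher in AKI-CKD than in Control in PT cells (0.24) and lower in CD-IC cells (−0.46). Again the groups did not overlap in either class. In a single class this held for 21.1% of all genes in PT cells and 17.5% over the 11 classes. The share of genes with such opposite directions was not counted. Neither Cubn estimate passed the test (edgeR adjusted p = 0.48 and 0.58). The difference was not tested. In CD-IC cells Cubn averaged 1.14 times the median PT marker relative to PT, and that marker stood at 0.261 to 0.460 times its PT level in Control and 0.201 to 0.295 times in AKI-CKD.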

How the results depend on the processing

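Of the values recomputed under the alternatives, 684 kept their direction and their side of the threshold, 11 passed the test where the reported value had not, 4 no longer passed (all for Clcn5 in CD-IC cells), 21 changed sign and 32 counts moved by over 1.5 times. No uptake gene was called in PT cells, with the exception of Clcn5 in AKI-CKD + EGT against AKI-CKD by DESeq2 (−0.36, adjusted p = 0.0325). The cause of the changes listed here was not tested.

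Replicate numbers are shared between the groups, but the 9 pairs of same-numbered mice deviated with correlations from −0.44 to 0.33, and 1 of the 9 was above 0.1, so the numbers were not read as a pairing. With a replicate block Clcn5 in CD-IC cells stayed at −0.99 with an adjusted p of 0.0510. The block left 0 genes called in PT cells in AKI-CKD against Control, 53 in CD-IC cells with EGT against AKI-CKD and 0 calls of uptake genes, and it changed no other call.

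Genes called in PT cells in AKI-CKD against Control numbered 8, but 228 by DESeq2, 112 with no count filter and 0 with only the 6 mice compared. With EGT against AKI-CKD the 0 became 437 by DESeq2 and 229 with no filter. The 353 in CD-IC cells became 808 with no filter and 642 without the 5% of cells with most UMIs. With no filter 4 calls of Dab2 appeared in AKI-CKD against Control (B cell, CD-PC, CNT, DCT), and with EGT against AKI-CKD there were 4 calls (Lrp2 and Clcn5 in CD-IC, Dab2 in CNT and DCT). DESeq2 gave 2, and leaving out the 5% of cells with most UMIs gave 3.

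Shares near no difference changed sign. AKI-CKD against Control moved for Lrp2 from 0.193 to −0.0272 with a mitochondrial limit of 10%, and for Clcn5 from −0.0180 to 0.179 with no thinning and to 0.0471 without Harmony. The Cubn segment ratio moved from 0.02 to −0.10 without Harmony.

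With each mouse left out, the shares of Lrp2 and Clcn5 in AKI-CKD against Control ran from −1.51 to 1.69 and from −0.226 to 0.1999. The segment ratios of Cubn, Amn and Clcn5 ran from −0.0443 to 0.0888, from −0.176 to 0.0237 and from −0.0908 to 0.0622, and those of Cubn and Clcn5 in AKI-CKD + EGT against AKI-CKD from −0.102 to 0.0101 and from −0.155 to 0.0176. In PT cells Dab2 in AKI-CKD + EGT against AKI-CKD ran from −0.0298 to 0.183, and in AKI-CKD + EGT against Control Cubn ran from −0.147 to 0.00604 and Amn from −0.37 to 0.15. Clcn5 in CD-IC cells ran from −1.14 to −0.85. Genes called ran from 0 to 9 and from 0 to 101 in PT cells (101 without AKI-CKD + EGT mouse 1), and from 21 (without AKI-CKD mouse 2) to 986 (without AKI-CKD + EGT mouse 1) in CD-IC cells, with 23 (AKI-CKD + EGT mouse 3), 107 (AKI-CKD + EGT mouse 2), 51 (AKI-CKD mouse 1) and 155 (AKI-CKD mouse 3) between. Calls of uptake genes ran from 0 to 1 (Dab2 in B cells without Control mouse 2) and from 0 to 3 (Lrp2, Cubn and Clcn5 in CD-IC without AKI-CKD + EGT mouse 1). Of the classes tested, depth limits B and T cells most, with 39 and 61 cells in the smallest mouse, and CD-IC cells numbered 78 there.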

Other observations

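Megalin and cubilin UMIs occurred in the same PT cells, together with depth. Of PT cells with an Lrp2 UMI, 41.0% to 47.2% per mouse also held a Cubn UMI, against 15.03% to 20.1% of those without one. The cells with Lrp2 held a median of 2965 to 3642 UMIs and those without 1624 to 1928, so the share of this difference that depth sets was not tested.

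Other genes of the uptake pathway were called in CD-IC cells in AKI-CKD + EGT against AKI-CKD, and were named after their values had been seen. The proton pump accessory subunit Atp6ap1 fell by 0.76 and the lysosomal protease Ctsd fell by 0.83 on the log2 scale (edgeR adjusted p = 0.036 and 0.026), whereas the hepatocyte nuclear factor Hnf4a (1.25) and the thyroxine carrier Ttr (2.03) were higher (edgeR adjusted p = 0.032 and 0.010). Ctsz and Clu were among the other listed genes called. In all, 1 of 21 acidification genes, 3 of 15 lysosomal genes, 1 of 7 transcription factors, 2 of 7 tested ligands, 0 of 10 tested other receptors and 0 of 29 tested trafficking genes were called, against 4.5% of the 7843 genes tested. The PT markers in these cells summed to 14735 to 42584 CPM in AKI-CKD and to 32654 to 64533 CPM in AKI-CKD + EGT mice.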
